A study of Mus musculus with 24 samples.

Results

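The levels of 10 transcription factor genes, chosen by symbol from the 24091 genes of the count table, were followed across 4 groups of bone marrow LSKs: Cebpa, Cebpb, Cebpd, Cebpe, Spi1, Gfi1, Runx1, Gata2, Tal1 and Myb. LSKs (Lin-Sca-1+c-Kit+) are the fraction of mouse marrow enriched for hematopoietic stem cells and multipotent progenitors. Each of the 24 libraries was bulk RNA-seq of the sorted LSKs of 1 mouse, with 6 mice (3 females and 3 males) per group. WT mice were miR-142+/+ and miR-142 KO mice were miR-142-/-, both without BCR-ABL. CP CML mice were miR-142+/+ BCR-ABL and BC CML mice miR-142-/- BCR-ABL, and both carried the SCLtTA/BCR-ABL transgenes, in which the SCL promoter drives a tetracycline-repressed activator of BCR-ABL in stem and progenitor cells. BCR-ABL had been on for 2 weeks when these LSKs were taken. All mice were on the B6 background, their ages are not given in the sources used here, and miR-142 was missing from every cell of the knockout mice. The labels list more mice per group than the methods of the study, so each labelled mouse was used.

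Members of the C/EBP family and PU.1 (encoded by Spi1) are the factors that open and drive myeloid genes in progenitors. C/EBP alpha is needed to form granulocyte-macrophage progenitors, C/EBP epsilon for the later granulocyte steps, and C/EBP beta for granulocyte output under stress. GFI1 is a repressor that favors the neutrophil over the monocyte fate and restrains stem cell division. RUNX1, GATA2 and TAL1 (also called SCL) bind together at stem cell enhancers, GATA2 also acts in mast cells and basophils and TAL1 in erythroid cells and megakaryocytes, and MYB sustains progenitor growth. BCR-ABL is the fused tyrosine kinase of chronic myeloid leukemia (CML), and loss of C/EBP alpha activity in human blast crisis is a known feature of the disease.

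The gene removed in miR-142 KO and BC CML mice encodes 2 mature miRNAs, which are shown because their seeds define which mRNAs they can pair with directly. Both come from the plus strand of chromosome 11, chr11:87756867-87756887 for the 5p arm and chr11:87756903-87756925 for the 3p arm (RefSeq, GRCm38.p6, the same coordinates as mm10). The capitals mark the seed, bases 2 to 8.
miR-142a-5p: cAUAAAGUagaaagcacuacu
miR-142a-3p: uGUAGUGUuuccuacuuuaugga
Of the 10 factors, 2 held a 7-base match to a seed in the longest annotated 3' UTR (GENCODE vM21). Cebpd held 1 match to the 5p seed, at base 1852 of a 3' UTR of 2900 bases. Gfi1 held 1 match to each arm in a 3' UTR of 1083 bases, at base 889 for 5p and base 33 for 3p. The capitals mark the match in the mRNA strand.
Cebpd, 5p: caaaataaactACTTTATtatgataattg
Gfi1, 5p: tgttaggtgggACTTTATtagatgcctgc
Gfi1, 3p: ccagctgtgtaACACTACcgtgagggatg
Among the tested genes with a 3' UTR, 15.9% held a 5p match and 6.97% a 3p match. The other 8 factors held neither in this UTR. A match is a description of the sequence, and binding at these bases was not measured.

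The promoter windows of RefSeq (250 bases before to 50 after a start site, GRCm38.p6) were found for 7 of the 10 factors, Cebpa, Cebpb, Gfi1, Runx1, Gata2, Tal1 and Myb, in 11 windows. They were searched on both strands for letters that the factors or their families recognize, and the share of all 32851 windows with a match is given for each. The C/EBP letters TTGCNNAA are held by 10.8% of the windows. For PU.1 the letters searched were GAGGAAG, held by 13.6%, and for the RUNX family TGTGGT, held by 16.8%. GATA factors were represented by AGATAA, in 11.2% of windows, and TAL1 by the E-box CAGATG, in 17.2%. For MYB the letters were AACNGNC, in 32.8%, and for GFI1 they were AAATCA, in 4598 of the 32851 windows. Gfi1, Runx1 and Tal1 each had 2 windows, of which 1 held matches and the other held none of the letters searched. As examples, the window with matches is printed for each of these genes, with the matches in capitals. The printed window of Gfi1 is on the minus strand at chr5:107725756-107726055, that of Runx1 on the minus strand at chr16:92826025-92826324 and that of Tal1 on the plus strand at chr4:115056176-115056475.
Gfi1: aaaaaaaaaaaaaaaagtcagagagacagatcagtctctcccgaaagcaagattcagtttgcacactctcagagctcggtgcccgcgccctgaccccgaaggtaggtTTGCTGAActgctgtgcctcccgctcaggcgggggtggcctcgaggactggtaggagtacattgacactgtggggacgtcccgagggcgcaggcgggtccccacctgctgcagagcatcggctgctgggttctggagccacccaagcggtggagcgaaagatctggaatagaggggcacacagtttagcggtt
Runx1: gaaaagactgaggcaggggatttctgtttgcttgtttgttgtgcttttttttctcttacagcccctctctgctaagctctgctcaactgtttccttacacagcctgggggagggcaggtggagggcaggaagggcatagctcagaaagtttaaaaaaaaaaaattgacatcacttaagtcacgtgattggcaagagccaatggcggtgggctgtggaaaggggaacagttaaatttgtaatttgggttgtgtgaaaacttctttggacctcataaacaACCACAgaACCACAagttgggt
Tal1: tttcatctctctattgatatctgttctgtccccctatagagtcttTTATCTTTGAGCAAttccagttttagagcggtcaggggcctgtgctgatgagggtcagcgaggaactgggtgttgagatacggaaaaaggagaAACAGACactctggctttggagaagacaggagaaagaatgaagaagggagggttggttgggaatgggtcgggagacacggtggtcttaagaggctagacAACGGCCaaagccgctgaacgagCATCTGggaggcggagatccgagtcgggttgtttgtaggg
The Gfi1 window held 1 C/EBP match, starting 143 bases before the start site. The Runx1 window held 2 RUNX matches after the start site, so the gene holds letters of its own family. The Tal1 window held a GATA match directly followed by a C/EBP match, 2 MYB matches and 1 TAL1 E-box. Cebpa and Cebpb each held 1 MYB match, Myb held 1 TAL1 E-box, and the Gata2 windows held none of the 7. The PU.1 and GFI1 letters were in none of the 11 windows, which says only that they are not in these bases.

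Total counts per library were 16267965 to 24687077, and intervals from counts cover counting error only. The deleted gene was checked first. Mir142 had 68 to 153 counts in each WT and CP CML library and 0 in each miR-142 KO and BC CML library, where a count of 0 allows up to 3. The LSK markers Kit (662 to 1240 CPM) and Ly6a, which encodes Sca-1 (30.7 to 155 CPM), were present in all 24 libraries (CPM, counts relative to the TMM-adjusted library total). All 10 factors passed the filter on low counts, with 41 to 34183 counts per library. WT replicate 3 stood apart: it had the highest value of its group in 7 of the 10 factors, and the summed level of its monocyte and macrophage markers was 1055 CPM against 150.4 to 244 CPM in the other WT libraries. The tests of the factors against WT and their ratios are also given without this mouse, as are the list counts below that moved. This alternative was chosen after the data were seen.

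Levels between genes were compared per kilobase of gene length as given in the count table. On that scale Myb was the most abundant factor in every group, from 232 CPM per kilobase in CP CML to 295 in miR-142 KO LSKs. Gata2 (60.4 to 94.5) and Spi1 (56.6 to 90.9) followed. Cebpa ranged from 27.1 CPM per kilobase in WT to 54.9 in BC CML, Tal1 from 32.5 to 37.2, Runx1 from 24.7 to 29.9 and Gfi1 from 13.96 to 31.2. The other C/EBP genes were lowest, at 10.1 to 20.4 for Cebpb, 4.71 to 12.9 for Cebpe and 2.08 to 6.69 for Cebpd. The spread of the group means was therefore wide for the C/EBP genes and narrow for Runx1, Tal1 and Myb.

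**Figure D1:**
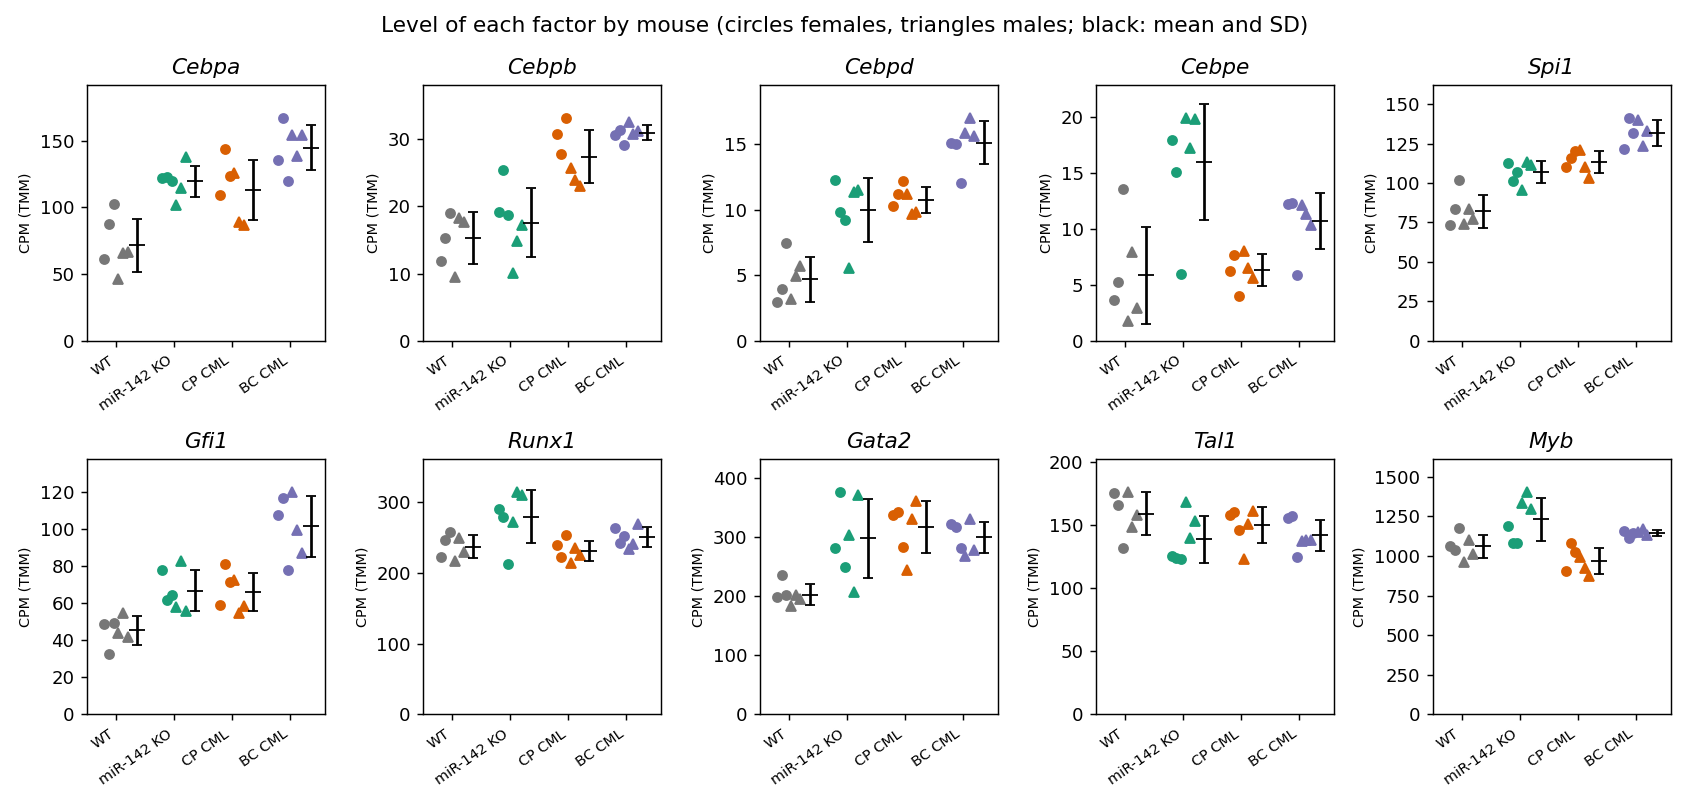
Level of each factor in each mouse (y axis, CPM after TMM scaling, from 0; x axis, the 4 groups; circles females, triangles males; black bars, mean and SD of 6 mice). BC CML had the highest mean for 5 factors and WT the lowest for 7, whereas the 4 groups of Tal1 overlap, with medians from 132 CPM in miR-142 KO to 162 CPM in WT.

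The C/EBP genes were described first. WT mice had 46.0 to 102 CPM (lowest to highest of 6 mice, median 66.2) of Cebpa, miR-142 KO mice 102 to 138 CPM (median 121), CP CML mice 86.9 to 144 CPM (median 116) and BC CML mice 119 to 167 CPM (median 146). Every BC CML mouse stood above every WT mouse, and each other pair of groups overlapped. In order of their means, BC CML (145 ± 16.9; SD, n = 6 in each group), miR-142 KO (119.6 ± 11.7) and CP CML (113 ± 22.3) did not differ past the threshold between neighbors (adjusted p = 0.132 and 0.686), and CP CML exceeded WT (71.5 ± 20.0; adjusted p = 0.000956).

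WT mice had 9.43 to 19.1 CPM (median 16.5) of Cebpb, miR-142 KO mice 10.03 to 25.5 CPM (median 18.0), CP CML mice 23.0 to 33.1 CPM (median 26.8) and BC CML mice 29.2 to 32.6 CPM (median 31.1). The levels fell into a lower pair without BCR-ABL and a higher pair with it. The means of the lower pair (15.3 ± 3.86 and 17.6 ± 5.10; SD, n = 6) did not differ beyond their spread (adjusted p = 0.362), nor did those of the higher pair (27.4 ± 3.96 and 31.0 ± 1.12; adjusted p = 0.413), and the step between CP CML and miR-142 KO passed the test (adjusted p = 0.00437).

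WT mice had 2.95 to 7.49 CPM (median 4.43) of Cebpd, miR-142 KO mice 5.57 to 12.3 CPM (median 10.6), CP CML mice 9.66 to 12.2 CPM (median 10.7) and BC CML mice 12.1 to 17.0 CPM (median 15.4). It was lowest in WT, intermediate with either change alone and highest with both. The means were 4.70 ± 1.72, 9.96 ± 2.44, 10.7 ± 0.972 and 15.1 ± 1.65 CPM (SD, n = 6), and only the middle neighbors, CP CML and miR-142 KO, did not differ past the threshold (adjusted p = 0.679).

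WT mice had 1.77 to 13.5 CPM (median 4.41) of Cebpe, miR-142 KO mice 5.97 to 19.8 CPM (median 17.5), CP CML mice 4.02 to 8.01 CPM (median 6.36) and BC CML mice 5.85 to 12.3 CPM (median 11.7). This was the most variable of the 10 factors and its order was different, with the highest mean in miR-142 KO (15.9 ± 5.20), then BC CML (10.7 ± 2.48), CP CML (6.33 ± 1.44) and WT (5.82 ± 4.34; SD, n = 6). No neighbors in this order differed past the threshold (adjusted p = 0.183, 0.0911 and 0.802), although miR-142 KO exceeded WT. The WT value of 13.5 CPM was that of replicate 3.

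WT mice had 73.4 to 102 CPM (median 80.1) of Spi1, miR-142 KO mice 95.5 to 113 CPM (median 109), CP CML mice 103 to 121 CPM (median 113) and BC CML mice 121 to 141 CPM (median 132). The BC CML mice stood above all other 18 mice. The means rose from 82.1 ± 10.6 in WT through 107 ± 7.19 and 113 ± 6.94 to 132 ± 8.16 CPM (SD, n = 6), and the middle neighbors did not differ past the threshold (adjusted p = 0.354).

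WT mice had 32.7 to 54.8 CPM (median 46.4) of Gfi1, miR-142 KO mice 56.0 to 82.8 CPM (median 63.0), CP CML mice 54.5 to 80.9 CPM (median 65.3) and BC CML mice 77.8 to 119.8 CPM (median 104). As for Cebpd and Spi1, the groups formed 3 steps, with WT (45.3 ± 7.64; SD, n = 6) below miR-142 KO (66.7 ± 11.02) and CP CML (66.1 ± 10.3), which did not differ past the threshold (adjusted p = 0.943), and BC CML on top (101 ± 16.6).

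Among the stem cell factors, WT mice had 183 to 236 CPM (median 199) of Gata2, miR-142 KO mice 206 to 376 CPM (median 292), CP CML mice 244 to 361 CPM (median 333) and BC CML mice 267 to 330.1 CPM (median 298). The 3 groups other than WT did not differ past the threshold between neighbors (adjusted p = 0.607 and 0.970) and WT stood below them (202 ± 17.6 CPM against 298 ± 66.8 in miR-142 KO; SD, n = 6; adjusted p = 0.000629). WT mice had 217 to 257 CPM (median 238) of Runx1, miR-142 KO mice 212 to 314 CPM (median 284), CP CML mice 213 to 253 CPM (median 230.0) and BC CML mice 234 to 269 CPM (median 247). Its highest mean, in miR-142 KO (279 ± 36.9), did not differ past the threshold from BC CML (250.3 ± 13.8; SD, n = 6; adjusted p = 0.0777).

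WT mice had 132 to 176 CPM (median 162) of Tal1, miR-142 KO mice 123 to 169 CPM (median 132), CP CML mice 123 to 162 CPM (median 155) and BC CML mice 125 to 157 CPM (median 138). All 4 groups overlapped and no neighbors differed past the threshold (adjusted p = 0.439 to 0.794). WT mice had 965 to 1175 CPM (median 1052) of Myb, miR-142 KO mice 1082 to 1403 CPM (median 1244), CP CML mice 875 to 1083 CPM (median 959) and BC CML mice 1116 to 1172 CPM (median 1147). The BC CML mice were close together (SD 19.2 CPM, n = 6) and all above the CP CML mice.

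To examine what loss of miR-142 does in normal LSKs, miR-142 KO was compared with WT. Of the 10 factors, 8 rose and 0 fell; 36.3% of all 13520 tested genes passed the same threshold (adjusted p below 0.05 in edgeR's quasi-likelihood test), 19.9% higher and 16.4% lower. The share of higher genes among all calls was 54.7%, and 42.0% under upper quartile scaling. The rises were largest for Cebpe (log2 fold change 1.45 ± 0.35; SE here and in what follows; 2.73-fold; adjusted p = 0.00231), Cebpd (1.08 ± 0.19; 2.12-fold; adjusted p = 9.43e-05) and Cebpa (0.74 ± 0.15; 1.67-fold; adjusted p = 0.000358). Gfi1 (0.56 ± 0.13), Gata2 (0.56 ± 0.12) and Spi1 (0.38 ± 0.07) also rose, and Runx1 (0.24 ± 0.07; 1.18-fold) and Myb (0.22 ± 0.07; 1.16-fold) rose least.

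Cebpb (0.20 ± 0.17; adjusted p = 0.362) and Tal1 (-0.20 ± 0.09; adjusted p = 0.0754) did not pass. The median log2 fold change of the factors was 0.47, against 0.01 over all tested genes. Only Gfi1 had groups that did not overlap, as did 14.5% of all tested genes. Without WT replicate 3 the same 8 passed, Cebpe stood at 1.90, and Tal1 passed as well (-0.24; adjusted p = 0.0296), as it did without miR-142 KO replicate 4 (-0.26; adjusted p = 0.0174). Runx1 and Myb did not pass when only these 12 libraries were fitted (adjusted p = 0.0658 and 0.0598).

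In the BCR-ABL background the same loss was examined by comparing BC CML with CP CML. Here 4 of the 10 factors rose and 0 fell, whereas 38.0% of all tested genes passed, 20.4% higher and 17.6% lower, so the share of factors called was near that of all genes. The share of higher genes among all calls was 53.7%, and 42.4% under upper quartile scaling. Gfi1 rose most (0.62 ± 0.13; 1.53-fold; adjusted p = 0.000605), followed by Cebpd (0.49 ± 0.18; 1.41-fold; adjusted p = 0.0353), Myb (0.24 ± 0.07; 1.18-fold; adjusted p = 0.00505) and Spi1 (0.22 ± 0.07; 1.16-fold; adjusted p = 0.0130). Spi1 and Myb were higher in every BC CML mouse than in any CP CML mouse, and 20.7% of all tested genes had groups that did not overlap.

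Cebpa was 1.28-fold higher without passing the threshold (0.36 ± 0.15; adjusted p = 0.0538), as was Cebpe (0.75 ± 0.35; adjusted p = 0.0911). Cebpb (0.18 ± 0.17), Runx1 (0.11 ± 0.07), Gata2 (-0.08 ± 0.12) and Tal1 (-0.08 ± 0.09) did not pass either. Cebpa passed without WT replicate 3 (adjusted p = 0.0368), WT replicate 4 (0.0353), CP CML replicate 2 (0.0289) or BC CML replicate 3 (0.0441), over a range of 0.0289 to 0.155 with each mouse left out, and Cebpe passed without WT replicate 3 (0.0482). The median of the factors was 0.23, against 0.01 over all tested genes. The call of Cebpd was lost when any 1 of 10 mice was left out (CP CML replicates 1, 2, 4, 5 and 6 and BC CML replicates 1, 2, 4, 5 and 6; adjusted p up to 0.0822), and that of Spi1 without CP CML replicate 6 (adjusted p = 0.0549) or BC CML replicate 2 (0.0506).

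**Figure D2:**
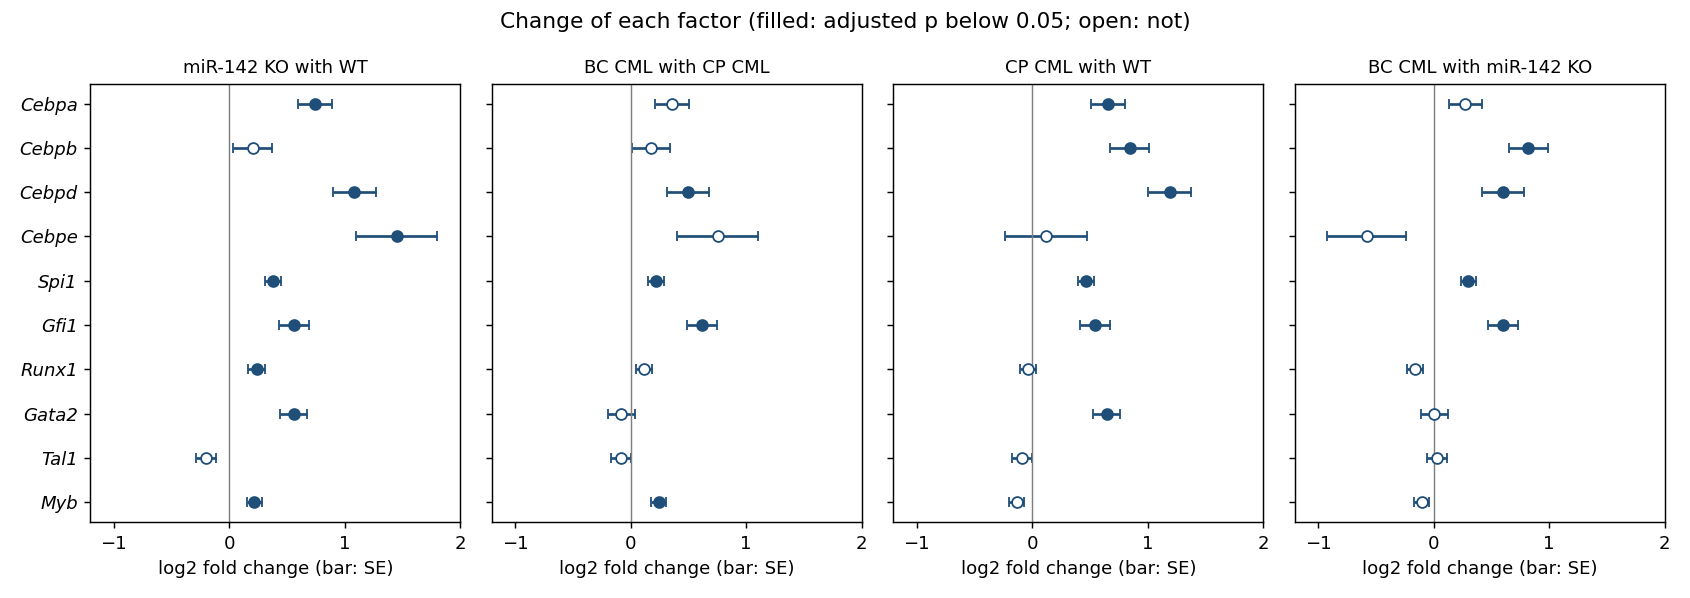
Log2 fold change (x axis; bars, SE) of each factor (y axis) in the 4 comparisons, with filled points where the adjusted p was below 0.05. Of the 10 factors, 8 are filled in miR-142 KO with WT, 4 in BC CML with CP CML, 6 in CP CML with WT and 4 in BC CML with miR-142 KO, and each filled point lies right of 0.

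BCR-ABL itself was examined by comparing CP CML with WT. Of the 10 factors, 6 rose and 0 fell, with 45.4% of all tested genes past the threshold, 22.5% higher and 22.9% lower. Cebpd rose 2.28-fold (1.19 ± 0.19; adjusted p = 3.47e-05), Cebpb 1.79-fold (0.84 ± 0.17; adjusted p = 0.000349) and Cebpa 1.58-fold (0.66 ± 0.15; adjusted p = 0.000956). Gata2 (0.65 ± 0.12), Gfi1 (0.55 ± 0.13) and Spi1 (0.46 ± 0.07) were the other 3. Cebpe (0.12 ± 0.35), Runx1 (-0.04 ± 0.07), Tal1 (-0.08 ± 0.09) and Myb (-0.13 ± 0.07) did not pass.

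Cebpb, Cebpd, Spi1 and Gata2 were higher in every CP CML mouse than in any WT mouse, and 21.8% of all tested genes had groups that did not overlap. Without WT replicate 3 the same 6 passed, and Cebpe moved to 0.58 (adjusted p = 0.133). Tal1, whose promoter drives the transgenic activator, had levels in CP CML and WT mice that overlapped.

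In the absence of miR-142, the effect of BCR-ABL was examined by comparing BC CML with miR-142 KO. Here 4 factors rose and 0 fell, against 39.6% of all tested genes called, 20.3% higher and 19.3% lower. Cebpb rose 1.76-fold (0.82 ± 0.17; adjusted p = 0.000666), Gfi1 1.52-fold (0.60 ± 0.13; adjusted p = 0.000966), Cebpd 1.52-fold (0.60 ± 0.18; adjusted p = 0.0119) and Spi1 1.23-fold (0.30 ± 0.07; adjusted p = 0.00141). Cebpb and Spi1 did not overlap between these groups, nor did 10.6% of all tested genes. Cebpe was lower by 0.58 ± 0.34 on the log2 scale without passing (adjusted p = 0.183), and Cebpa (0.28 ± 0.14; adjusted p = 0.132), Runx1, Gata2, Tal1 and Myb did not pass either. Without miR-142 KO replicate 3, Runx1 fell by 0.24 (adjusted p = 0.00115).

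Comparisons across both changes were used only to order the groups. From WT to BC CML, 7 factors rose (65.0% of all tested genes were called), from 1.48-fold for Gata2 to 3.21-fold for Cebpd, and Runx1, Tal1 and Myb did not pass. Without WT replicate 3 the same 7 rose, from 1.47-fold for Gata2 to 3.64-fold for Cebpd, and Tal1 fell by 0.22 on the log2 scale (adjusted p = 0.0284). Between CP CML and miR-142 KO, where 36.6% of all tested genes were called, Cebpb was higher in CP CML (0.64 ± 0.17) and Cebpe (-1.33 ± 0.35; 0.398-fold), Myb (-0.35 ± 0.07) and Runx1 (-0.27 ± 0.07) were lower. These comparisons share their control groups with those above. With an absolute log2 value of at least 1 also required, the factors called were 0 in BC CML with CP CML (7.34% of all tested genes), 2 in miR-142 KO with WT (7.80%), 1 in CP CML with WT (6.88%), 0 in BC CML with miR-142 KO (6.12%) and 0 in the difference of effects (1.24%).

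Whether loss of miR-142 acted differently with and without BCR-ABL was tested as the difference between the effects in CML (BC with CP) and in normal LSKs (miR-142 KO with WT), which share no mice. Gata2 was the only factor past the threshold, with an effect 0.64 ± 0.16 lower in CML on the log2 scale (adjusted p = 0.0282), and 3.99% of all tested genes passed. It rose 1.47-fold in normal LSKs and was 0.945-fold in CML LSKs. The Gata2 difference passed with each mouse left out in turn (-0.75 to -0.58; adjusted p 0.00500 to 0.0476) and under each other setting tried but a limit of 1 on the log2 value. Cebpd (-0.59 ± 0.26; adjusted p = 0.212), Cebpe (-0.70 ± 0.49; adjusted p = 0.465) and Cebpa (-0.38 ± 0.21; adjusted p = 0.317) had smaller estimates in CML without passing, and without WT replicate 3 Cebpd passed (-0.80; adjusted p = 0.0452). Gfi1 (0.06 ± 0.18), Myb (0.03 ± 0.09) and Cebpb (-0.02 ± 0.24) had the closest estimates in both backgrounds. The sign was the same in both backgrounds for 9 of the 10 factors and for 74.7% of all tested genes.

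**Figure D3:**
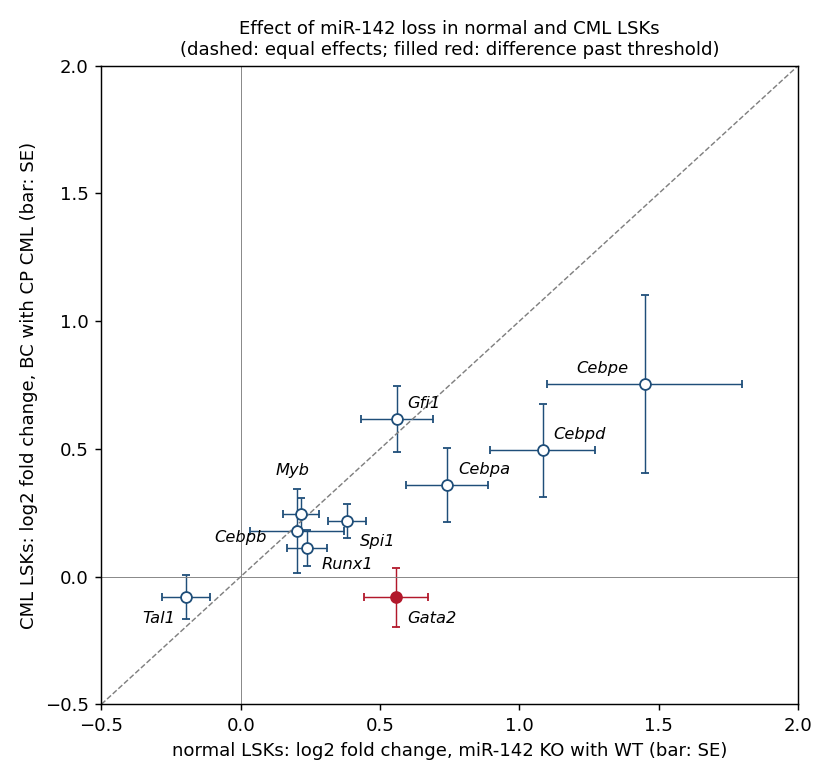
Effect of miR-142 loss on each factor in normal LSKs (x axis, log2 fold change of miR-142 KO with WT) and in CML LSKs (y axis, log2 fold change of BC CML with CP CML), with SE bars and a dashed line of equal effects. Gata2, in red, lies at 0.56 in normal and -0.08 in CML LSKs, and Gfi1, Myb and Cebpb lie close to the line.

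The balance between factors was compared as the log2 ratio of their counts within each mouse, which does not depend on the scaling of the library. The ratio of Cebpa to Spi1 was -0.24 ± 0.27 in WT mice, 0.16 ± 0.11 for miR-142 KO, -0.03 ± 0.22 for CP CML and 0.13 ± 0.14 for BC CML (log2, mean ± SD, n = 6). It was higher in miR-142 KO than in WT in 35 of 36 pairs of mice (difference 0.39; exact two-sided permutation test p = 0.00433, adjusted p = 0.0519 over 12 tests). The ratio of Cebpe to Cebpa had means of -3.88 for WT, -3.00 for miR-142 KO, -4.16 for CP CML and -3.79 for BC CML. It was lower by 0.79 in BC CML than in miR-142 KO (exact permutation p = 0.0238, adjusted p = 0.143). The ratio of Gata2 to Spi1 had means of 1.30, 1.45, 1.47 and 1.18 in the same order and BC CML was 0.29 below CP CML (exact permutation p = 0.0693, adjusted p = 0.208).

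None of the 12 differences passed after adjustment, 2 had an unadjusted exact permutation p below 0.05, and the smallest p that 6 against 6 mice allow is 0.00216. Without miR-142 KO replicate 3, which had the lowest Cebpe of its group, the 3 differences of miR-142 KO from WT in both C/EBP ratios and of BC CML from miR-142 KO in Cebpe to Cebpa passed (adjusted p = 0.0346 each). Without WT replicate 3 the Cebpa to Spi1 ratio of miR-142 KO was 0.44 above that of WT and the Cebpe to Cebpa ratio 1.08 above (exact permutation adjusted p = 0.104 each).

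**Figure D4:**
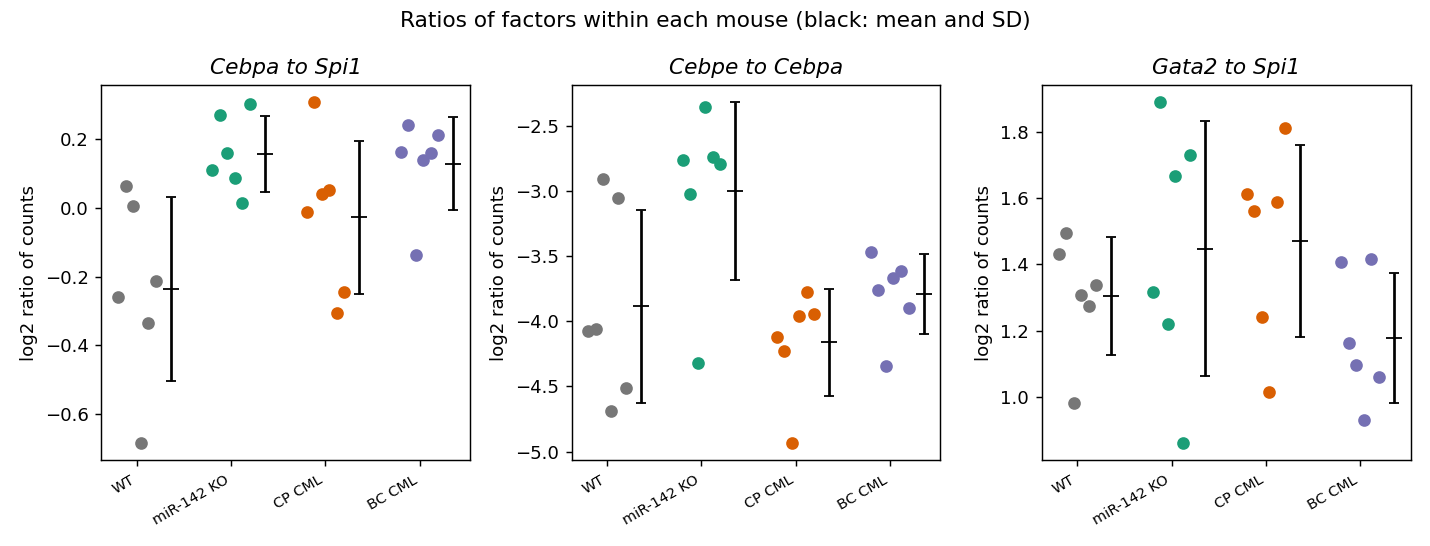
Log2 ratio of the counts of 2 factors within each mouse (y axis) in the 4 groups (x axis), with the mean and SD of 6 mice in black. The Cebpa to Spi1 ratio of miR-142 KO lies above that of WT in 35 of 36 pairs of mice, and the groups overlap in all 3 ratios.

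Sex was examined because each group held 3 females and 3 males. The effect of miR-142 loss did not differ past the threshold between females and males for any of the 10 factors, in CML (0% of 13914 genes tested) or in normal LSKs (0.00719%), in edgeR's quasi-likelihood test. Unadjusted p was below 0.05 for 0 and 1 factors, respectively. That factor was Myb in normal LSKs, with a log2 fold change of 0.03 ± 0.07 in females and 0.38 ± 0.07 in males (difference -0.35 ± 0.10, female minus male; adjusted p = 0.354). Male miR-142 KO mice had 1297 to 1403 CPM of Myb, above all male WT mice (965 to 1102 CPM). Cebpe had estimates of 0.79 ± 0.48 in females and 2.16 ± 0.50 in males (adjusted p of the difference = 0.672).

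Within a sex each group held 3 mice. In BC CML compared with CP CML, 0 factors passed in females, where 2 had an unadjusted p below 0.05 in edgeR's quasi-likelihood test and 15.5% of all tested genes passed, and 3 rose in males (26.8% of all tested genes). Those were Gfi1, Myb and Cebpa, which stood at 0.55 ± 0.18 in males (adjusted p = 0.0289) and 0.15 ± 0.18 in females (adjusted p = 0.619), and the difference between the sexes did not pass (adjusted p = 0.996). In miR-142 KO compared with WT, 6 factors passed in females (22.3% of all tested genes) and 7 in males (20.4%). Tal1 was the 1 that fell, by 0.35 ± 0.11 in females (adjusted p = 0.0284), and it stood at -0.08 ± 0.11 in males (adjusted p = 0.686), a difference that did not pass (adjusted p = 0.737).

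Within groups, the factors also varied together. Over the 24 libraries, after subtraction of the group means from log2 CPM, the highest correlation among the 45 pairs was that of Cebpa with Spi1 (Pearson r = 0.77), followed by Cebpb with Cebpd (0.74) and Cebpd with Spi1 (0.72). Tal1 went the other way, with r = -0.61 with Cebpb, -0.57 with Spi1 and -0.55 with Cebpd. The points share their library scaling and are given as a description.

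Among 10509 tested genes (mean 5 CPM or more), those most like each factor over the 24 libraries were listed with r before and after subtraction of group means. Cebpa was most like Slc22a4 (0.96 and 0.87) and Clint1 (0.96 and 0.86). Cebpb was most like Lilrb4a (0.94 and 0.83) and Fcer1a (0.93 and 0.82), a chain of the IgE receptor of mast cells and basophils. Cebpd was most like Fcgr2b (0.96 and 0.83) and Hp (0.96 and 0.81), which encodes haptoglobin.

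Cebpe was most like Olr1 (0.92 and 0.92) and Far2 (0.88 and 0.86), so its likeness was as high within groups as across them. Spi1 was most like B4galt1 (0.97 and 0.78) and Mapkapk3 (0.97 and 0.77), and Gfi1 was most like Gyg (0.94 and 0.75) and P3h1 (0.93 and 0.71). Gata2 was most like Inpp4b (0.87 and 0.72) and Cnr2 (0.86 and 0.64), and Myb was most like Rasgrp2 (0.89 and 0.70) and Mdm1 (0.85 and 0.63). Tal1 was most like Arl14ep (0.84 and 0.81) and Socs4 (0.78 and 0.73). Runx1 was most like Kcnj5 (0.82 and 0.69), and its next gene was a predicted one without a name.

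Known target genes of the factors were counted from lists by symbol. Of 14 tested granulocyte genes that need C/EBP alpha or C/EBP epsilon, 12 rose and 0 fell in miR-142 KO compared with WT, with a median log2 fold change of 2.10 against 0.01 over all tested genes. Ctsg (cathepsin G) rose 4.13-fold and Ms4a3 4.44-fold. Leaving out WT replicate 3 gave 11 that rose and 0 that fell here, and 8 and 1 in CP CML compared with WT. In BC CML compared with CP CML, 4 rose and 2 fell (median 0.57), among them Csf3r, the G-CSF receptor, 1.41-fold higher and Elane, neutrophil elastase, 2.25-fold higher. From WT to CP CML 7 rose and 1 fell, and from miR-142 KO to BC CML 5 rose and 6 fell. Of all tested genes, 19.9%, 20.4%, 22.5% and 20.3% were higher and 16.4%, 17.6%, 22.9% and 19.3% lower in these 4 comparisons. The share of the list called in BC CML compared with CP CML was near the 38.0% of all tested genes. The called genes of the list were split in direction from miR-142 KO to BC CML and mostly higher from WT to CP CML. In BC CML compared with miR-142 KO, Lcn2 (lipocalin 2) was 6.07-fold higher and S100a9, a calprotectin subunit of mature neutrophils, was 0.0991-fold.

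Of 12 PU.1 targets, 4 rose and 0 fell in miR-142 KO compared with WT and 5 rose and 0 fell in BC CML compared with CP CML, shares near the 36.3% and 38.0% of all tested genes. Without WT replicate 3, 7 rose and 0 fell in the first. Those that rose in BC CML included Lyz2 (lysozyme; 1.79-fold) and the GM-CSF receptor chain Csf2ra (1.27-fold). Csf2rb, the shared beta chain, rose 3.22-fold from WT to CP CML and 2.47-fold from miR-142 KO to BC CML. With loss of miR-142 the members that rose are cytokine receptors, the Fc receptor Fcgr3 and lysozyme. Of 11 GATA2 or TAL1 targets, 5 rose and 2 fell in miR-142 KO compared with WT and 4 rose and 3 fell in BC CML compared with CP CML (all tested genes, 19.9% higher and 16.4% lower in the first and 20.4% higher and 17.6% lower in the second). The counts in the first were 6 and 2 without WT replicate 3. With loss of miR-142 the genes that rose were those of mast cells, basophils and platelets, such as Cpa3 (mast cell carboxypeptidase; 3.90-fold from WT to miR-142 KO and 3.63-fold from CP CML to BC CML) and Gp1ba (2.62-fold and 2.21-fold). Between the miR-142+/+ groups, Cpa3 was 14.3-fold higher in CP CML than in WT. Kit, the stem cell factor receptor, fell to 0.728-fold from CP CML to BC CML, and the erythroid gene Epb42 to 0.398-fold.

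Of 10 MYB targets, 1 of them Gfi1 itself, 5 rose and 1 fell in miR-142 KO compared with WT, where 36.3% of all tested genes passed. These counts were 6 and 2 without WT replicate 3. In BC CML compared with CP CML, 3 rose and 1 fell, near the share of all tested genes (38.0%). Mpo (myeloperoxidase) rose 2.14-fold from WT to miR-142 KO, and Rag2 fell to 0.339-fold.

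Factors that act with the 10 were counted the same way. Of 11 partners of RUNX1, GATA2 and TAL1 in stem cell complexes, 1 rose and 6 fell in miR-142 KO compared with WT. In BC CML compared with CP CML, 1 rose and 3 fell. From WT to CP CML 0 rose and 6 fell (0 and 5 without WT replicate 3), and from miR-142 KO to BC CML 0 rose and 5 fell. Of all tested genes, 16.4%, 17.6%, 22.9% and 19.3% were lower in these comparisons. Lmo2, which bridges TAL1 and GATA factors, went from 683 CPM in WT to 491 CPM in CP CML (0.719-fold) and rose 1.16-fold from there to BC CML. Erg fell to 0.794-fold from WT to CP CML. While Gata2 rose from WT in each group, its partners mostly fell or did not pass.

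Of 12 other stem cell factors, 0 rose and 5 fell in miR-142 KO compared with WT (0 and 6 without WT replicate 3). In both BC CML compared with CP CML and CP CML compared with WT, 0 rose and 8 fell. In BC CML compared with miR-142 KO, 0 rose and 10 fell. Of all tested genes, 16.4%, 17.6%, 22.9% and 19.3% were lower in these comparisons. Hlf went to 0.418-fold with loss of miR-142 in normal and to 0.489-fold in CML LSKs. Sox4 (0.648-fold and 0.690-fold) and Hoxa9 (0.660-fold in normal LSKs) also fell. Of 8 erythroid and megakaryocyte factors, 7 fell in each BCR-ABL comparison, where 22.9% and 19.3% of all tested genes were lower. They included the GATA partner Zfpm1, which fell to 0.617-fold from WT to CP CML and to 0.461-fold from miR-142 KO to BC CML.

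Of 13 lymphoid factors, 5 rose and 4 fell in BC CML compared with CP CML, among them Gata3 (4.42-fold higher). In CP CML compared with WT, 0 rose and 7 fell (0 and 6 without WT replicate 3). Of all tested genes, 20.4% were higher and 17.6% lower in the first comparison, and 22.5% and 22.9% in the second. Of 14 other myeloid factors, 0 rose and 3 fell in BC CML compared with CP CML, led by Irf4 (0.157-fold). This was a smaller share than the 38.0% of all tested genes that passed. In CP CML compared with WT, 5 rose and 1 fell, near the 45.4% of all tested genes that passed, with Mitf 3.33-fold higher. Of 5 tested regulators of C/EBP alpha, Trib2, which drives its degradation, fell to 0.288-fold in BC CML compared with CP CML and to 0.363-fold in miR-142 KO compared with WT. Calr (calreticulin), which binds Cebpa mRNA, rose 1.505-fold and 1.87-fold in the same comparisons. Cebpg, a family member that lacks an activation domain, rose 1.26-fold in BC CML compared with CP CML and fell to 0.668-fold in CP CML compared with WT. Of the 5 corepressors of GFI1, 1 rose and 0 fell in each of miR-142 KO with WT, BC CML with CP CML and CP CML with WT. These counts were near the 19.9%, 20.4% and 22.5% of all tested genes that were higher.

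**Figure D5:**
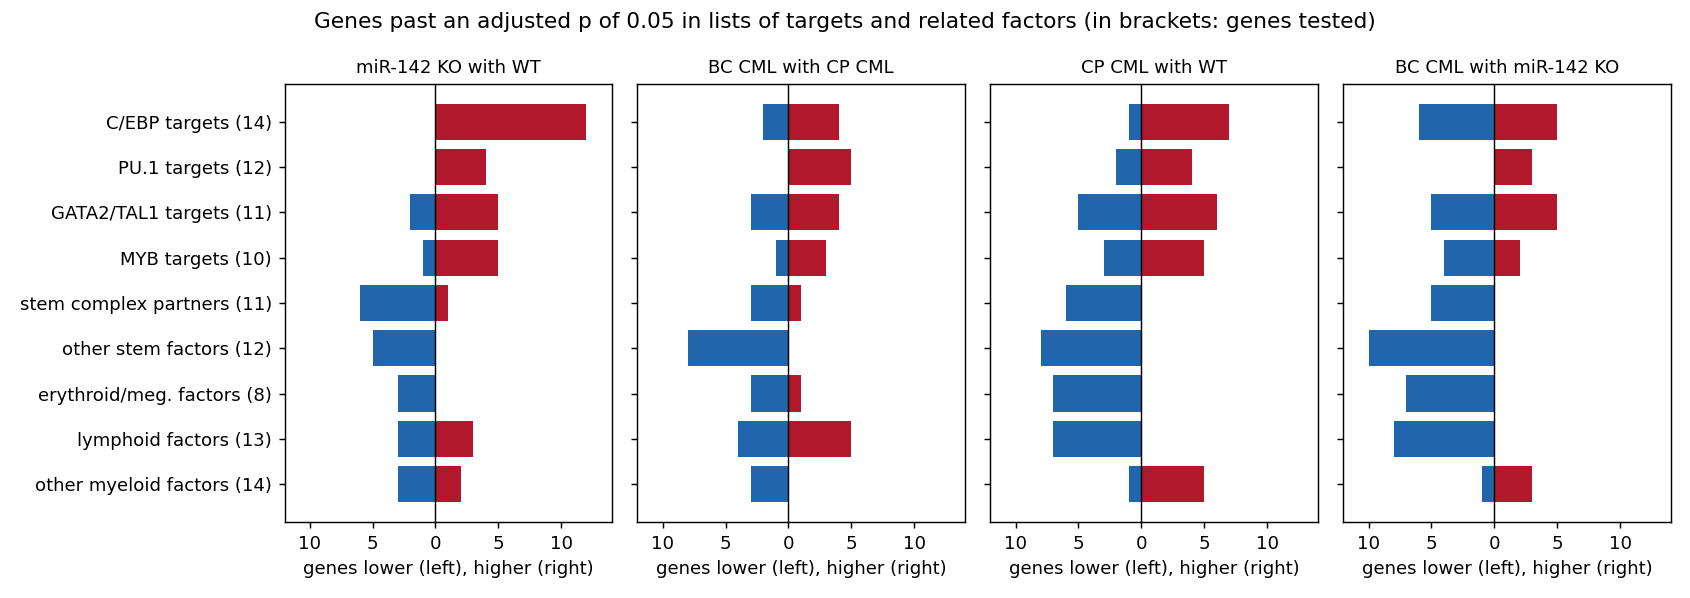
Number of genes past an adjusted p of 0.05 that were higher (right, red) or lower (left, blue) in each list (y axis, with the number tested in brackets) for the 4 comparisons. Of 14 C/EBP targets, 12 rose in miR-142 KO with WT, where 19.9% of all tested genes were higher. Other stem factors lie on the lower side in each comparison.

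Markers of cells that can express these factors moved with the groups, and fewer cells of a type and less RNA per cell cannot be told apart in bulk samples. The summed level of 10 mast cell or basophil markers was 102 to 629 CPM for WT mice, 376 to 3193 CPM for miR-142 KO, 2359.7 to 4880.5 CPM for CP CML and 6482 to 13940.1 CPM for BC CML. Of these markers, 7 of 10 were higher in each comparison of miR-142 loss, as were 19.9% (normal) and 20.4% (CML) of all tested genes. In each comparison of BCR-ABL 8 of 10 were higher, as were 22.5% (with miR-142) and 20.3% (without) of all tested genes. The sum for 10 mature neutrophil markers was 16.6 to 71.8, 61.7 to 228, 61.4 to 96.4 and 65.8 to 156 CPM in the same order of groups. Lcn2 and Cxcr2 had the highest means of these in CP CML (38.0 and 11.2 CPM) and BC CML (64.9 and 27.4 CPM). Of 9 tested neutrophil markers, 6 rose and 0 fell from WT to miR-142 KO (5 and 0 without WT replicate 3). From CP CML to BC CML 1 rose and 3 fell, from WT to CP CML 3 rose and 1 fell. From miR-142 KO to BC CML 2 rose and 6 fell. Of all tested genes, 36.3%, 38.0%, 45.4% and 39.6% passed in these comparisons. The sum for 11 monocyte, macrophage or dendritic markers was 150.4 to 1055, 193 to 549, 549 to 839 and 589 to 769 CPM. The sum for erythroid markers, cells in which Tal1 is also active, was 49.6 to 117 CPM for WT, 5.88 to 132 CPM for miR-142 KO, 10.3 to 41.7 CPM for CP CML and 2.59 to 8.27 CPM for BC CML. B cell markers summed to 69.8 to 958, 27.3 to 45.7, 166 to 747 and 28.5 to 40.2 CPM in the same order, and T and NK cell markers to 57.1 to 101, 117 to 166, 73.3 to 91.9 and 85.0 to 124 CPM. Flt3, which marks the lymphoid-primed multipotent progenitors within the LSK gate, went to 0.425-fold from WT to miR-142 KO and to 0.427-fold from CP CML to BC CML. Megakaryocyte markers summed to 267 to 387 CPM for WT, 226 to 679 CPM for miR-142 KO, 311 to 413 CPM for CP CML and 287 to 408 CPM for BC CML. No marker of these lists was at 0 in every library of a group. The neutrophil sum and Cebpe both had their highest median in miR-142 KO, and the mast cell sum, Cebpa, Cebpb, Cebpd, Spi1 and Gfi1 in BC CML. Their part in the levels of the 10 factors was not tested.

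Genes that overlap a factor on the opposite strand were noted because the strand setting of the counting is not given in the sources used here. Cebpb is overlapped by Tmem189 (556 to 807 counts per library) and Cebpd by Spidr (873 to 1751 counts), and annotated models outside the count table overlap Cebpa, Gfi1, Runx1 and Myb. Reads in those stretches cannot be assigned to a strand here. On mm10, Cebpa lies at chr7:35119293-35121931, Cebpb at chr2:167688915-167690432, Cebpd at chr16:15887286-15889545 and Cebpe at chr14:54710363-54712174. Spi1 lies at chr2:91096678-91115759, Gfi1 at chr5:107716655-107726022, Runx1 at chr16:92601466-92826074, Gata2 at chr6:88193891-88207032, Tal1 at chr4:115056426-115071755 and Myb at chr10:21124930-21160984. Values are counts over the whole gene, and they measure mRNA, not the factors' protein.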

How the data were processed

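RNA-seq libraries of LSKs were used, 1 from each of 24 mice, with 6 mice in each of 4 groups taken from the labels. The authors deposited read counts per gene without normalization. Their methods name Trimmomatic and FASTP for trimming, STAR for mapping to mm10, and HTSeq-count. The annotation and strand setting are not given in the sources used here. A length column in kilobases was deposited beside the counts, which came as 24 columns, each matched to 1 mouse.

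Counts were tested in edgeR 4.0.16 (R 4.3.3) with TMM scaling, filterByExpr, a single fit of the 24 libraries and quasi-likelihood F tests. P-values were adjusted over 13520 genes (Benjamini-Hochberg; threshold 0.05). The study's likelihood ratio test was an alternative. SEs were derived from the fold change and its F statistic. CPM values are scaled by TMM, and log2 CPM used a prior count of 2. Ratios within a mouse used a prior count of 0.5 and exact permutation tests in SciPy 1.17.1. The test was checked on simulated counts. The 10 genes and the lists were chosen with earlier results of these data known. All 10 were described. Examples from the lists were taken from the up to 3 genes per comparison with the smallest p past the threshold and a mean of at least 1 CPM, apart from Epb42, chosen after its values were seen. Alternatives were RLE and upper quartile scaling, DESeq2 1.42.0, other filters, sex as a covariate, 12 libraries per fit and each mouse left out, and for 3 of the comparisons per gene these were added after the data were seen, as were list counts without WT replicate 3.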

Additional observations from a re-analysis of the deposited data

Results flagged for a closer look

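In 40 groups of 6 mice (10 factors in 4 groups), 4 had a mouse far from the others by Dixon's test, where chance gives about 1 in 20. Cebpe was lowest in miR-142 KO replicate 3, at 5.97 CPM, and in BC CML replicate 3, at 5.85 CPM. Spi1 was highest in WT replicate 3, at 102 CPM, and Gata2 was highest in WT replicate 2, at 236 CPM. Gata2 was also the factor whose response to loss of miR-142 differed between CML and normal LSKs, by -0.64 on the log2 scale (adjusted p = 0.0282 in edgeR's quasi-likelihood test), and by -0.66 without WT replicate 3.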

How the results depend on the processing

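When an absolute log2 value of at least 1 was also required, 0 factors passed in BC CML with CP CML, 2 in miR-142 KO with WT, 1 in CP CML with WT, 0 in BC CML with miR-142 KO and 0 in the difference of the effects of miR-142 loss, where 1.24% to 7.80% of all tested genes passed. Over the 24 fits that leave out 1 mouse, the number of factors called ranged from 2 to 6 in BC CML with CP CML (2 without CP CML replicate 6 or BC CML replicate 2) and from 1 to 2 in the difference of effects (2 without WT replicate 3). Over the same fits 32.4% to 41.2% and 2.75% to 5.79% of all tested genes passed. No fold change or ratio of a factor that passed a threshold changed sign under the alternatives run. Upper quartile scaling lowered the share of higher genes among all calls from 53.7% to 42.4% in BC CML with CP CML and from 54.7% to 42.0% in miR-142 KO with WT. Under it Cebpd did not pass in BC CML with CP CML (adjusted p = 0.0541), Tal1 passed lower in miR-142 KO with WT (0.0274), Myb lower in CP CML with WT (0.0365) and Runx1 lower in BC CML with miR-142 KO (0.0368). Cebpa passed in BC CML with CP CML under the likelihood ratio test, DESeq2, sex as a covariate and only the 12 libraries compared (lowest adjusted p = 0.0255), and with only the 12 libraries Cebpe passed there (0.00499) and Cebpa in BC CML with miR-142 KO (0.0253). The causes were not tested. No paired analysis was possible because the replicate numbers are in accession order and pair no mice.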
